A study of Rattus norvegicus with 8 samples.

Results

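The 35 genes described here encode proteins that copy DNA or supply the deoxynucleotides for it. They were chosen by gene symbol as a list of licensing factors, helicase subunits, polymerases, clamp and clamp loader, chromatin assembly factors and enzymes of deoxynucleotide synthesis, with the transcription factor Mybl2 and the repair factor Brca1. All 35 symbols were found among the 28546 entries of the raw count table, and all 35 passed the filter on low counts, which left 14445 tested genes. RNA was sequenced from cultured astrocytes of rat pups of the Sprague Dawley strain, in 3 groups with 8 libraries. In the control group (n = 2) the melanoma cells that the astrocytes were exposed to, named 12-273 BM, carried a scrambled hairpin RNA. In the sh-APP group (n = 3) they carried a hairpin against APP, the gene of the amyloid precursor protein, from which amyloid beta is cut. In the anti-Abeta group (n = 3) the melanoma cells carried the scrambled hairpin, and amyloid beta was met with an antibody. All 3 groups thus share the strain, the melanoma line and a hairpin vector, and rest on 1 melanoma line and, for sh-APP, 1 hairpin. The labels name a co-culture, 24 h in melanoma medium, and astrocyte medium put on melanoma cells, and the sources used here do not say which applied. The study asks how astrocytes differ when amyloid beta from melanoma cells is reduced.

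Before a cell copies its DNA, the origin recognition complex with Cdc6 and Cdt1 loads the ring of Mcm2 to Mcm7 onto origins, a step called licensing. Cdc45 and the GINS complex then turn the ring into an active helicase, DNA polymerase alpha with its primase starts each strand, and the polymerases delta and epsilon extend it while held by the sliding clamp Pcna, which a clamp loader places on DNA. Ribonucleotide reductase, thymidylate synthase and thymidine kinase supply the precursors, and E2F transcription factors, held back by the RB family, switch many of these genes on as a cell enters S phase. Astrocytes taken from pups still divide in culture, whereas most astrocytes of the adult brain do not.

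The promoters of these genes are described first, since the E2F motif is what many of them are known to share. RefSeq promoters on the rat build GRCr8 (250 bases before to 50 after the gene's start) matched 31 of the 35 genes; Orc1, Cdc6, Mcm4 and Rrm2 had no entry. Windows around the motif are printed for 5 genes that differ in their response, 4 of which fell in sh-APP (Tyms, Pola1, Gins1 and Mcm6) and 1 of which did not (Mcm7). Capitals mark TTTGGCGC or TTTCCCGC on either strand, and each window reads 5′ to 3′ on the strand of its gene. The Tyms window is cut to 30 bases and lies before the start that the promoter table uses but, on GRCr8, within the annotated span of Tyms, which reaches further.
Tyms, chr9:120776102-120776131, minus strand: aaggtgcgggtTTTGGCGCcgactacactg
Pola1, chrX:62342490-62342557, minus strand: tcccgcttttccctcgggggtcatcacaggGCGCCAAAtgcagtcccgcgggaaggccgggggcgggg
Gins1, chr3:160184865-160184919, plus strand: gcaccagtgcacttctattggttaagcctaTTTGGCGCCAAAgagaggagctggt
Mcm6, chr13:42404454-42404521, minus strand: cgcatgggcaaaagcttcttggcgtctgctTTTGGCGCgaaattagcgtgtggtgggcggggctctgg
Mcm7, chr12:22163374-22163428, minus strand: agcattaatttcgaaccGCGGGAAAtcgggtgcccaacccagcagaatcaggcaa

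In Gins1 the motif is present on both strands, overlapping, as a palindrome shortly before the start. Either 8-base form, on either strand of the 300-base window, was present in 10 of the 31 promoters (32.3%), namely those of Cdt1, Mcm3, Mcm5, Mcm6, Mcm7, Gins1, Pola1, Pole, Rfc3 and Tyms. It was present in 1.53% of all 27457 promoters in the table and in 2.83% of the 10182 promoters of tested genes. The shorter forms TTCCCGC and TTGGCGC, which lie within the 8-base forms, were found in 18 of 31 (58.1%), against 6.67% of all promoters and 12% of those of tested genes. CCAAT, the box bound by NF-Y, was in 19 of 31 (61.3%), against 37.7% and 37.6%, and GGGCGG, the GC box, in 19 of 31, against 34.9% of all promoters and 62.9% of those of tested genes. TTTGAA, the element known as CHR in promoters of mitotic genes, was in 1 of 31 (Mcm2), against 18.1% and 11.5%. Among the genes with an entry, the 8-base E2F motif was in 6 of the 16 that fell in sh-APP and in 4 of the 15 others, and the shorter form in 10 of 16 and 8 of 15. In the 250 bases before the start alone the 8-base motif was in 6 of 31 promoters (19.4%, against 2.34% of those of tested genes), 5 of the 16 and 1 of the 15. The shorter form was then in 11 of 31 (35.5%, against 9.59%), 8 of the 16 and 3 of the 15. The motif was thus present in both sets, and whether its share differs between them was not tested. A match of letters describes the window and is not evidence that a factor binds there.

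Each library held between 34250464 and 47831595 counts in total, and single counts of the 35 genes from 107 (Mcm10) to 7801 (Pcna). On average over tested genes the spread between libraries exceeded counting error. Genes with high counts weigh most in that average, and the members with low counts were not assessed. Levels are given as CPM, counts scaled to a common library total by TMM factors, which correct each library for its composition. These factors were 0.90 to 0.92 in control, 1.04 to 1.06 in sh-APP and 0.99 to 1.03 in anti-Abeta, and the share of counts from mitochondrially encoded genes was 5.04 to 6.21%, 1.96 to 2.50% and 3.0 to 3.62%. Anti-Abeta replicate 2 stood apart, with a chi-square per degree of freedom of 30.9 and 45.8 against the others of its group, while the other pairs within a group had 17.1 to 20.4. App in the astrocytes had log2 fold changes of 0.09 ± 0.08 (SE) in sh-APP and -0.09 ± 0.08 in anti-Abeta, which do not check the hairpin, since it was in the melanoma cells. The 10 astrocyte markers summed to 15801 to 16165 CPM in control, 17053 to 19545 in sh-APP and 13928 to 14931 in anti-Abeta. In sh-APP against control 7 of them were called higher and 1 lower, and in anti-Abeta against control 4 and 3. Gfap was at 2897 to 2924 CPM in control and 5513 to 7180 in sh-APP, and Gja1 at 3511 to 3853 and 1979 to 2297. The 8 neuron markers summed to 332 to 358, 152 to 164 and 224 to 290 CPM in control, sh-APP and anti-Abeta, most of it Map2 and Snap25. Of these 8, 3 were called lower in sh-APP (Snap25, Map2 and Elavl4) and 3 higher (Stmn2, Tubb3 and Rbfox3). The calls of Tubb3 and Rbfox3 were lost in some other fits. In anti-Abeta 2 were lower and 0 higher. The 8 oligodendrocyte lineage markers summed to 2307 to 2387, 2737 to 2892 and 2686 to 3015, most of it Olig1. Olig1 was called higher in sh-APP and Pdgfra lower, and in anti-Abeta 2 were higher and 0 lower. The 7 microglia and macrophage markers summed to 0.108 to 0.445, 1.12 to 1.67 and 0.709 to 1.14 CPM, so that both arms lay above control at a low level, with Cx3cr1 at 0 in all libraries. Of the 2 of them that were tested, Tyrobp was called higher in sh-APP (log2 fold change 2.84 ± 0.79, adjusted p = 0.00882). That call rested on 131 counts over all libraries together. It was lost on leaving out 1 of the libraries, with log2 fold changes of 2.12 to 4.36 over such fits. The 5 endothelial markers summed to 3.48 to 4.17, 2.05 to 3.75 and 2.30 to 5.54 with Cldn5 at 0, and the 7 fibroblast and pericyte markers to 43.1 to 51.4, 44.2 to 49.1 and 41.5 to 55.2. The 7 melanocyte and melanoma markers summed to 45.1 to 46.9, 29.7 to 31.3 and 32.2 to 48.0 CPM, nearly all of it Mitf, while Tyr, Tyrp1, Dct and Mlana had 21, 29, 13 and 2 counts over all libraries together. Fitted without the mitochondrially encoded genes, the 3 comparisons gave the same counts of calls among the 35 genes. The part of the other shifts in the results below was not tested.

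In sh-APP against control, 20 of the 35 genes were lower and 2 were higher at a Benjamini-Hochberg adjusted p below 0.05 over all tested genes, in the quasi-likelihood test of edgeR. Across all tested genes 27.9% were called lower and 25.8% higher in this comparison. All 4 genes of deoxynucleotide synthesis fell, as did 3 of the 4 helicase activation genes, 5 of 9 licensing genes and 3 of 5 genes of clamp and clamp loader. The 2 that rose were Pold1, the catalytic subunit of polymerase delta, and Rfc2, a clamp loader subunit. The median log2 fold change of the 35 genes was -0.46, against 0.03 for all tested genes, and 6 of them (Tyms, Brca1, Rrm2, Rfc4, Pola1 and Gins1) fell more than 2-fold, as did 9.20% of tested genes. The control and sh-APP libraries did not overlap for 26 of the 35 genes, 22 with sh-APP lower and 4 with sh-APP higher, against 35% and 35.7% of tested genes. The counts of the 35 genes summed to 1411 and 1438 CPM in control and to 975, 1090 and 968 in sh-APP. Mki67, a marker of dividing cells that is not in the list, was at 15.8 ± 1.33 CPM (mean ± SD, n = 2) in control, 5.48 ± 2.52 for sh-APP and 15.2 ± 3.94 for anti-Abeta (n = 3 each), with log2 fold changes of -1.52 ± 0.31 (adjusted p = 0.00111) and -0.05 ± 0.30 (adjusted p = 0.919). In such bulk libraries, fewer dividing cells and less RNA of a gene per cell cannot be told apart.

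With library totals in place of TMM factors, 15 of the 35 genes were lower and 5 higher in sh-APP. Of the 14445 tested genes 3091 were lower and 5174 higher at that setting. The median of the 35 was then -0.26 in place of -0.46 and that of all tested genes 0.23 in place of 0.03, and 37.4% of all calls were lower in place of 52.0%. Without control replicate 1, which leaves 1 control library, some calls were lost. The median was then -0.54 for the 35 genes and 0.04 for all tested genes. Without sh-APP replicate 2 the calls of Pold1 and Rfc2 were lost.

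**Figure D1:**
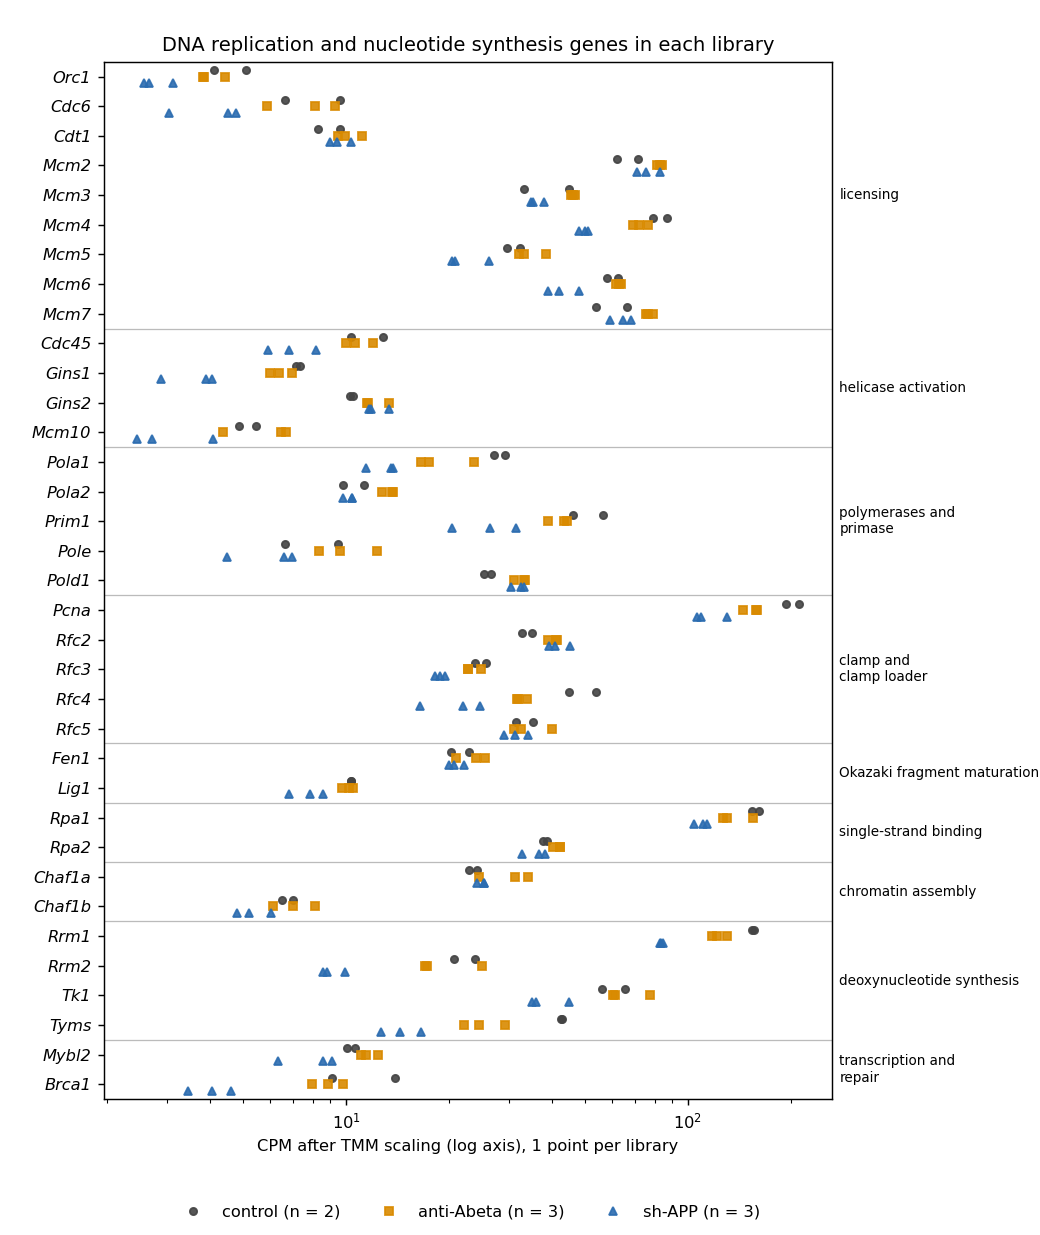
Level of each of the 35 genes in each library, in CPM after TMM scaling on a log axis, with genes grouped by role and 1 point per library (control, dark circles; anti-Abeta, orange squares; sh-APP, blue triangles). The sh-APP triangles lie left of both control circles for 22 genes, among them Rrm1, Rrm2, Tk1 and Tyms, and right of both for 4.

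In anti-Abeta against control, 5 of the 35 genes were lower (Tyms, Rfc4, Pola1, Pcna and Rrm1) and 3 were higher (Mcm2, Mcm7 and Pold1). Across all tested genes 16.6% were called lower and 12.7% higher, so the 8 calls are near the background of 29.2%. The median log2 fold change was 0.06 for the 35 genes and 0.03 for all tested genes, and no member fell more than 2-fold (0.575% of tested genes did). The groups did not overlap for 8 genes with anti-Abeta lower and for 10 with anti-Abeta higher, against 27% and 27.9% of tested genes. The counts summed to 1287, 1415 and 1317 CPM in anti-Abeta, where replicate 2 alone lay within the control range of 1411 to 1438. None of these calls remained on leaving out control replicate 1, a fit with 1 control library. Most calls among all tested genes were lost there too, so the loss is not particular to these genes. Without anti-Abeta replicate 1 or 3 there were 5 calls each, beside 2947 and 2594 among all tested genes. Without anti-Abeta replicate 2 there were 8 lower genes, beside 19.5% of all tested genes. With library totals alone 3 genes were lower and 7 higher, beside 1417 and 3590 of the 14445 tested genes. The medians were then 0.21 for the 35 and 0.18 for all tested genes, and 28.3% of all calls were lower in place of 56.6%. With upper-quartile factors 5 were lower and 6 higher, beside 2047 and 2391 of tested genes, and 46.1% of all calls were lower.

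In sh-APP against anti-Abeta, 24 of the 35 genes were lower and 0 were higher by edgeR's test. With p unadjusted and under 0.05 these counts were 28 and 0, with DESeq2 25 and 0, and with limma-voom 24 and 0. Across all tested genes 16% were called lower and 10.1% higher. The median was -0.53, against -0.01 for all tested genes. Rrm2 and Brca1 were lower by more than 2-fold, as were 1.75% of tested genes. The libraries did not overlap for 27 genes, all with sh-APP lower, against 22.1% of tested genes. Without sh-APP replicate 1 the count was 14, beside 10.4% of all tested genes. The 10 lost calls had adjusted p from 0.0501 to 0.168. With library totals alone the count was 20, beside 13.6% of all tested genes, and 50.5% of all calls were lower in place of 61.5%. The 3 comparisons share libraries, so their values are given side by side.

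**Figure D2:**
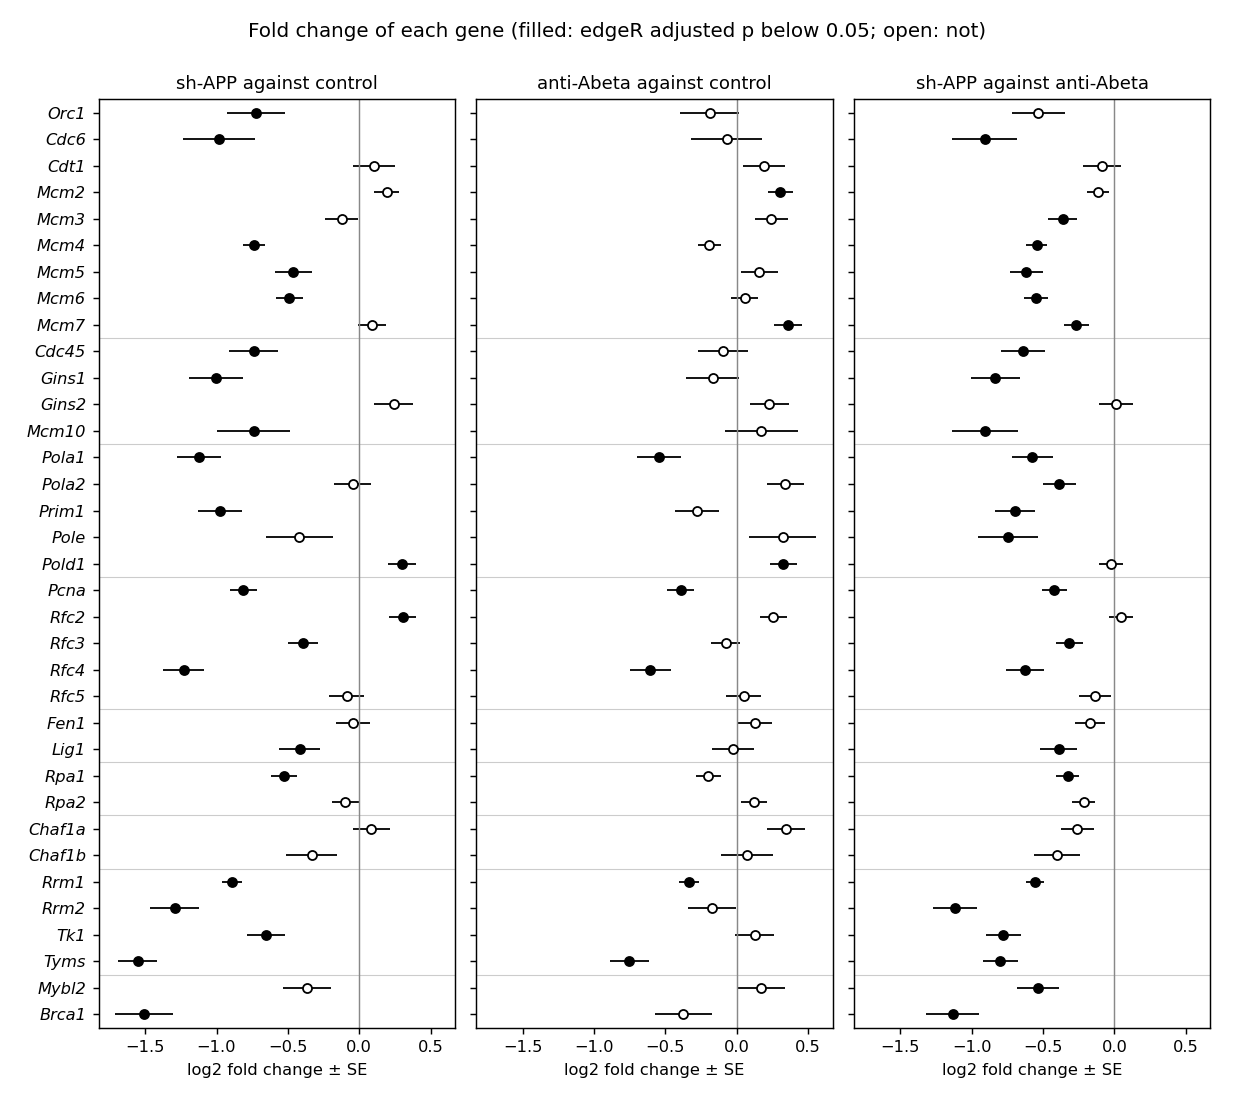
Log2 fold change of each gene with its standard error in the 3 comparisons, from edgeR's fit of all 8 libraries, with filled points for an adjusted p below 0.05. Filled points lie left of zero for 20 genes in sh-APP against control, 5 in anti-Abeta against control and 24 in sh-APP against anti-Abeta, and right of zero for 2, 3 and 0.

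Licensing genes were not uniform. Orc1, the largest subunit of the origin recognition complex, was at 5.09 and 4.10 CPM in control, at 3.12, 2.66 and 2.56 in sh-APP and at 4.42, 3.82 and 3.85 in anti-Abeta. Cdc6, which recruits the MCM ring, was at 6.64 and 9.61 CPM, at 3.03, 4.78 and 4.53, and at 8.13, 9.27 and 5.87 in the same order of groups. For both genes all sh-APP libraries lay below all others, while anti-Abeta overlapped control. The log2 fold change in sh-APP against control was -0.72 ± 0.21 for Orc1 (adjusted p = 0.0099) and -0.98 ± 0.25 for Cdc6 (adjusted p = 0.00542). Without control replicate 1 the call of Orc1 was lost (adjusted p = 0.112), and without control replicate 2 that of Cdc6 (log2 fold change -0.67, adjusted p = 0.102). With library totals alone Orc1 had an adjusted p of 0.0549. Cdt1, the partner of Cdc6 in loading the ring, had 8.26 and 9.59 CPM in control, 8.99, 9.41 and 10.3 in sh-APP and 9.90, 9.47 and 11.1 in anti-Abeta. Its groups overlapped, and its log2 fold changes were 0.10 ± 0.15 in sh-APP and 0.19 ± 0.15 in anti-Abeta (adjusted p = 0.59 and 0.368).

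The 6 subunits of the MCM ring are needed in equal number in the protein complex, and their transcripts differed in response. Mcm4 was at 86.8 and 78.8 CPM in control, at 48.1, 49.9 and 51.0 in sh-APP and at 69.1, 76.3 and 72.1 in anti-Abeta, with no overlap between any groups. It fell by 0.74 ± 0.08 on the log2 scale in sh-APP (adjusted p = 1.57e-05) and had -0.19 ± 0.08 in anti-Abeta (adjusted p = 0.0913; called without anti-Abeta replicate 2, -0.24 and 0.0427). Mcm5 stood at 29.6 and 32.4 CPM, at 20.4, 26.2 and 20.8, and at 32.1, 38.5 and 33.1, and Mcm6 at 58.0 and 62.6, at 38.9, 47.9 and 41.8, and at 61.6, 62.8 and 63.6. These 2 were lowest in every sh-APP library and in anti-Abeta overlapped control. They fell in sh-APP by 0.46 ± 0.13 (adjusted p = 0.00918) and 0.49 ± 0.09 (adjusted p = 0.000824). The call of Mcm5 was lost on leaving out control replicate 2 (adjusted p = 0.0951) and with library totals alone (-0.26, adjusted p = 0.093).

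Mcm2, Mcm3 and Mcm7 were not called in sh-APP against control. Mcm7 was at 53.7 and 66.4 CPM in control, at 64.7, 68.0 and 59.3 in sh-APP and at 75.5, 76.6 and 78.9 in anti-Abeta. Mcm2 was at 62.2 and 71.4 CPM, at 71.2, 82.6 and 75.3, and at 82.8, 80.9 and 84.0. For these 2 subunits the anti-Abeta libraries were above both control libraries, and for Mcm7 above every other library, while sh-APP overlapped control. They rose in anti-Abeta by 0.36 ± 0.10 (Mcm7, adjusted p = 0.0189) and 0.31 ± 0.09 (Mcm2, adjusted p = 0.0237), calls lost on leaving out control replicate 1 (log2 fold change 0.20 for each, adjusted p = 0.243 and 0.248) or anti-Abeta replicate 3 (0.0542 and 0.062), and for Mcm2 also without anti-Abeta replicate 1 (0.0544). With library totals alone Mcm2 and Mcm7 were also called higher in sh-APP (0.40 and 0.29, adjusted p = 0.00231 and 0.0254), and Mcm2 was so with upper-quartile factors (0.28, adjusted p = 0.0189) and without control replicate 2 (0.31, adjusted p = 0.0341). Mcm3 had 33.2 and 44.8 CPM in control, 34.7, 37.9 and 35.2 in sh-APP and 45.6, 46.1 and 46.7 in anti-Abeta, so that the sh-APP libraries lay between the control ones. Its log2 fold change was -0.12 ± 0.12 in sh-APP (adjusted p = 0.41) and -0.31 (adjusted p = 0.0382) without control replicate 1. In anti-Abeta it was 0.24 ± 0.12 (adjusted p = 0.139), and it was called higher without control replicate 2 (0.47, adjusted p = 0.0234). Against anti-Abeta, sh-APP was lower for Mcm3, Mcm4, Mcm5, Mcm6 and Mcm7, by 0.27 to 0.62 on the log2 scale, and Mcm2 had -0.11 ± 0.08 (adjusted p = 0.325). The calls of Mcm3 and Mcm7 in that comparison were lost on leaving out sh-APP replicate 1 (adjusted p = 0.0778 and 0.0912) or 3 (0.0726 and 0.151) or anti-Abeta replicate 2 (0.0584 and 0.0957) or 3 (0.0508 and 0.0943), and that of Mcm7 without anti-Abeta replicate 1 (0.0705), with upper-quartile factors (0.0734) and with library totals (0.103).

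The helicase activation genes also split. Gins1, a GINS subunit, was at 7.34 and 7.16 CPM in control, at 3.90, 4.05 and 2.88 in sh-APP and at 6.96, 6.38 and 6.01 in anti-Abeta. Gins2, of the same complex, was at 10.3 and 10.5 CPM in control, at 13.4, 11.6 and 11.8 in sh-APP and at 13.4, 11.5 and 11.6 in anti-Abeta. For Gins1 the sh-APP libraries lay far below both other groups, and for Gins2 both arms lay above control. Gins1 fell by 1.00 ± 0.19 in sh-APP (adjusted p = 0.000658), and Gins2 had 0.24 ± 0.14 (adjusted p = 0.159), or 0.45 (adjusted p = 0.0181) with library totals alone. Gins2 overlaps Gse1 on the chromosome. Cdc45, which joins GINS on the ring, was at 12.9 and 10.4 CPM, at 6.80, 8.17 and 5.91, and at 12.0, 9.98 and 10.6. It fell by 0.74 ± 0.17 in sh-APP (adjusted p = 0.00302), a call lost on leaving out control replicate 1 (-0.57, adjusted p = 0.0535). Mcm10, which helps the helicase to open DNA, was at 4.87 and 5.45 CPM, at 2.71, 4.09 and 2.45, and at 6.45, 6.65 and 4.36. Its sh-APP libraries were below all others, and the fold change was -0.74 ± 0.26 (adjusted p = 0.0284), a call lost on leaving out either control replicate (adjusted p = 0.0753 and 0.152), without sh-APP replicate 1 or 3 (0.0778 and 0.0939) and with library totals alone (0.0818). In anti-Abeta none of these 4 was called. Against anti-Abeta, sh-APP was lower for Gins1 (-0.83 ± 0.17), Cdc45 (-0.64 ± 0.16) and Mcm10 (-0.91 ± 0.23), the last a call lost on leaving out sh-APP replicate 1 or 3 (adjusted p = 0.0542 and 0.058), and Gins2 had 0.01 ± 0.12 (adjusted p = 0.953).

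Among polymerases and primase, Pola1, the catalytic subunit of polymerase alpha, was at 27.1 and 29.1 CPM in control, at 11.5, 13.5 and 13.8 in sh-APP and at 16.6, 23.7 and 17.4 in anti-Abeta. All 3 groups were separate, with anti-Abeta between the others. Pola1 fell by 1.12 ± 0.15 in sh-APP (adjusted p = 7.76e-05) and by 0.55 ± 0.15 in anti-Abeta (adjusted p = 0.0211). The latter call was lost on leaving out control replicate 1 (adjusted p = 0.103) or 2 (0.123) or anti-Abeta replicate 1 (0.0652) or 3 (0.0693). Pola2, the second subunit of that polymerase, was at 11.3 and 9.83 CPM, at 9.81, 10.4 and 10.4, and at 13.6, 12.7 and 13.7. Here sh-APP overlapped control and anti-Abeta was the highest group. Pola2 had -0.05 ± 0.13 in sh-APP (adjusted p = 0.79) and 0.34 ± 0.13 in anti-Abeta (adjusted p = 0.0704, or 0.0437 with upper-quartile factors and 0.0154 with library totals). Prim1, the primase that makes the RNA primer, was at 56.5 and 46.0 CPM, at 26.4, 31.4 and 20.5, and at 39.0, 44.2 and 43.5, again with all groups separate. It fell by 0.97 ± 0.15 in sh-APP (adjusted p = 0.000184) and had -0.28 ± 0.15 in anti-Abeta (adjusted p = 0.19).

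Pold1 was at 25.3 and 26.6 CPM in control, at 32.4, 33.1 and 30.3 in sh-APP and at 33.1, 31.0 and 33.5 in anti-Abeta. Both arms lay above control and overlapped each other. Pold1 rose by 0.30 ± 0.09 in sh-APP (adjusted p = 0.0177) and by 0.33 ± 0.10 in anti-Abeta (adjusted p = 0.0241), and the arms differed by -0.03 ± 0.08 (adjusted p = 0.853). The call in sh-APP was lost on leaving out control replicate 1 (adjusted p = 0.105) or sh-APP replicate 2 (0.0567), and that in anti-Abeta without either control replicate (0.177 and 0.0685) or anti-Abeta replicate 1 or 3 (0.0585 and 0.0658). Pole, the catalytic subunit of polymerase epsilon, was at 6.62 and 9.48 CPM, at 6.57, 6.97 and 4.49, and at 9.59, 12.3 and 8.31. Its control libraries spanned much of the range, and it was called neither in sh-APP (-0.42 ± 0.24, adjusted p = 0.153) nor in anti-Abeta (0.32 ± 0.24, adjusted p = 0.331). Between the arms Pole differed by -0.74 ± 0.21 (adjusted p = 0.0219), a call lost on leaving out sh-APP replicate 3 (0.0836) or anti-Abeta replicate 2 (0.0956). Pola2 was lower in sh-APP than in anti-Abeta by 0.39 ± 0.12 (adjusted p = 0.0285), a call lost on leaving out any single library of the 2 arms (0.0545 to 0.0972) and with library totals (0.0595), while Prim1 (-0.70 ± 0.14, adjusted p = 0.00398) and Pola1 (-0.57 ± 0.14, adjusted p = 0.0116) differed more, the latter call being lost on leaving out sh-APP replicate 1 (0.0501).

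Pcna, the sliding clamp, was at 211 and 193 CPM in control, at 109, 130.1 and 106 in sh-APP and at 145, 158 and 159 in anti-Abeta. The 3 groups were separate. Pcna fell by 0.81 ± 0.09 in sh-APP (adjusted p = 2.41e-05) and by 0.39 ± 0.09 in anti-Abeta (adjusted p = 0.011), the latter call being lost on leaving out control replicate 1 (-0.34, adjusted p = 0.118) and with library totals alone (-0.24, adjusted p = 0.0551). Rfc4, a subunit of the clamp loader, was at 53.7 and 44.9 CPM, at 21.9, 24.6 and 16.4, and at 31.6, 33.8 and 31.8, also with separate groups. It fell by 1.23 ± 0.15 in sh-APP (adjusted p = 2.72e-05) and by 0.61 ± 0.15 in anti-Abeta (adjusted p = 0.0107), or -0.48 without control replicate 1 (adjusted p = 0.135). Rfc2, of the same loader, was at 32.7 and 35.02 CPM, at 40.9, 45.3 and 39.3, and at 41.1, 38.9 and 41.4, with both arms above control. It rose by 0.30 ± 0.09 in sh-APP (adjusted p = 0.0158), a call lost on leaving out control replicate 1 (0.108) or sh-APP replicate 2 (0.0646), and had 0.26 ± 0.09 in anti-Abeta (adjusted p = 0.0588; 0.032 with upper-quartile factors and 0.00812 with library totals). Rfc3 was at 25.7 and 23.8 CPM in control, at 18.2, 19.4 and 18.8 in sh-APP and at 22.8, 24.9 and 22.7 in anti-Abeta, and only its sh-APP libraries stood apart (-0.39 ± 0.10, adjusted p = 0.00625). That call was lost on leaving out control replicate 1 (adjusted p = 0.0709) and with library totals alone (-0.19, adjusted p = 0.15). Rfc5 overlapped in all groups, at 29.0 to 40.1 CPM over the 8 libraries, with -0.09 ± 0.12 in sh-APP and 0.05 ± 0.12 in anti-Abeta. Against anti-Abeta, sh-APP was lower for Pcna (-0.42 ± 0.09), Rfc4 (-0.63 ± 0.13) and Rfc3 (-0.32 ± 0.09), the last a call lost on leaving out sh-APP replicate 1 (adjusted p = 0.0908) or 3 (0.0718), without anti-Abeta replicate 2 (0.11) and with library totals alone (0.0591).

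**Figure D3:**
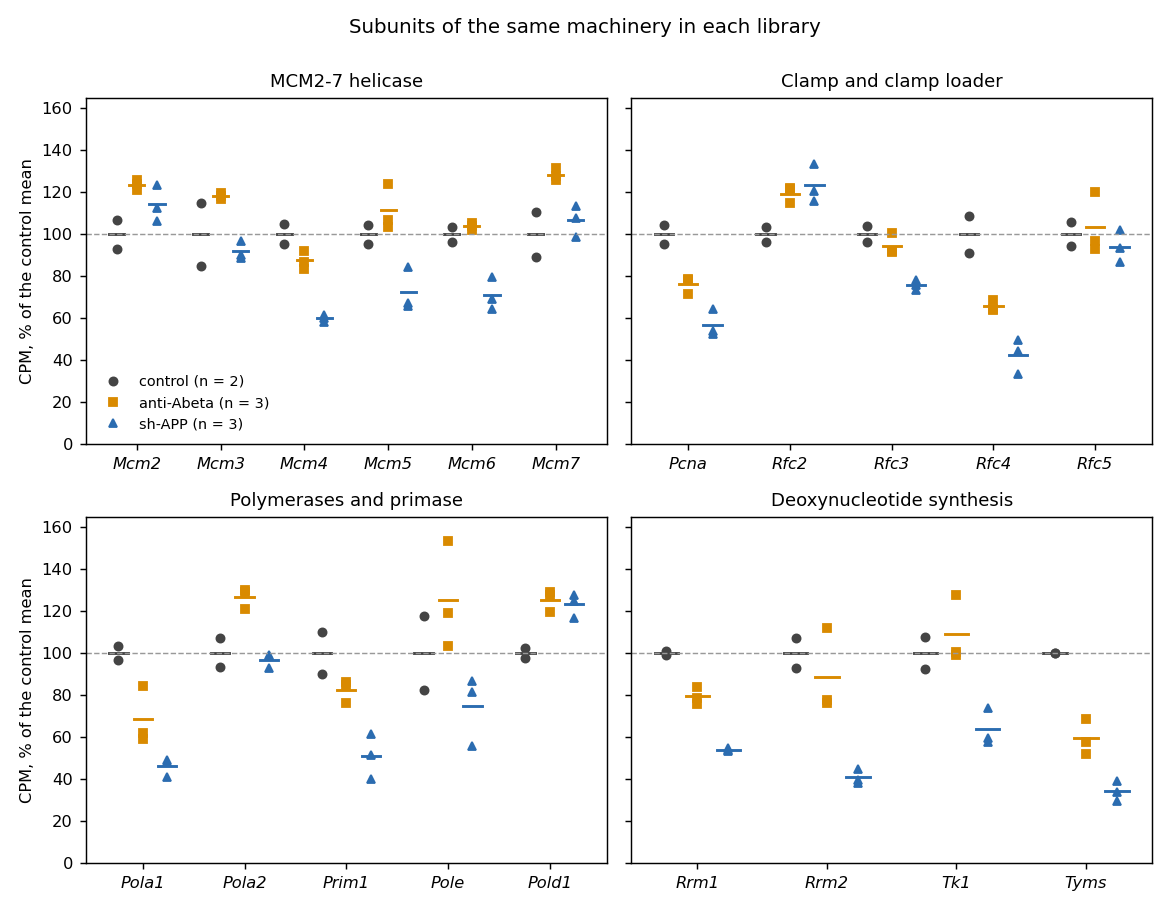
CPM of genes of the same machinery in each library, as a percentage of the control mean (dashed line at 100), with 1 point per library and a short bar at each group mean (control n = 2, anti-Abeta n = 3, sh-APP n = 3). In sh-APP the mean of Tyms was 34.1% of control and the means of Mcm2, Mcm7, Rfc2 and Pold1 lay above 100%.

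Partners of 1 complex can be set against each other as a ratio of their counts in the same library, which does not depend on the scaling. These pairs were chosen with their values in view, and their ratios are a description with no test. The count of Mcm4 per count of Mcm7 was 1.62 and 1.19 in control, 0.744, 0.734 and 0.860 in sh-APP and 0.916, 0.996 and 0.913 in anti-Abeta. Rfc4 per Rfc2 was 1.64 and 1.28 in control, 0.536, 0.544 and 0.418 in sh-APP and 0.769, 0.870 and 0.768 in anti-Abeta. In both pairs the control libraries had the highest ratios, anti-Abeta came between and sh-APP was lowest, with no overlap. Gins1 per Gins2 was 0.715 and 0.681 in control, 0.292, 0.348 and 0.244 in sh-APP and 0.520, 0.553 and 0.519 in anti-Abeta. Pola1 per Pola2 was 2.40 and 2.96 in control, 1.17, 1.30 and 1.32 in sh-APP and 1.22, 1.86 and 1.27 in anti-Abeta, so that here the arms overlapped. Rrm2 per Rrm1, a pair that fell together in sh-APP, was 0.135 and 0.153 in control, 0.106, 0.118 and 0.102 in sh-APP and 0.145, 0.192 and 0.142 in anti-Abeta. In this pair sh-APP was again lowest, but anti-Abeta overlapped control. A ratio shows that the 2 transcripts changed unequally and not which of them changed.

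Of the pair that finishes lagging strand fragments, Fen1, the flap endonuclease, was at 20.2 to 25.6 CPM over the 8 libraries with overlapping groups (-0.04 ± 0.12 in sh-APP, 0.13 ± 0.12 in anti-Abeta), and it overlaps Tmem258. Lig1, the ligase that seals the fragments, was at 10.3 in both control libraries, at 6.80, 8.57 and 7.83 CPM in sh-APP and at 10.5, 9.74 and 10.2 in anti-Abeta. All sh-APP libraries of Lig1 were below the rest. Its fall of 0.42 ± 0.15 (adjusted p = 0.0286) lost its call on leaving out either control replicate (adjusted p = 0.105 and 0.108), without sh-APP replicate 1 or 3 (0.0978 and 0.0567), with upper-quartile factors (0.074) and with library totals (0.256), and Lig1 overlaps Zswim9. In sh-APP against anti-Abeta it had -0.39 ± 0.13 (adjusted p = 0.0444), a call lost on leaving out any single library other than sh-APP replicate 2 (adjusted p = 0.0685 to 0.168), with the replicate block (0.0617), with upper-quartile factors (0.0648), with library totals (0.0826), with no low-count filter (0.0707) and in a fit of the 2 arms alone (0.0644). Of the single-strand binding proteins, Rpa1 was at 154 and 161 CPM in control, at 104, 114 and 110.3 in sh-APP and at 127, 155 and 130.3 in anti-Abeta. It fell by 0.53 ± 0.09 in sh-APP (adjusted p = 0.000361), and in anti-Abeta, where replicate 2 alone reached the control level, it had -0.20 ± 0.09 (adjusted p = 0.118), or -0.31 (adjusted p = 0.00847) without that library. Its difference between the arms was -0.33 ± 0.08 (adjusted p = 0.0121), a call lost on leaving out sh-APP replicate 1 (0.0552). Rpa2, its partner, was at 32.7 to 42.3 CPM and was called in none of the 3 comparisons. Chaf1a and Chaf1b, subunits of the factor that places histones on new DNA, were likewise not called. Chaf1a had 24.2 and 22.9 CPM in control, 24.2, 25.3 and 25.3 in sh-APP and 31.3, 34.0 and 24.5 in anti-Abeta, where its log2 fold change was 0.35 ± 0.13 (adjusted p = 0.0669). It was called higher in anti-Abeta without anti-Abeta replicate 3 (0.47, adjusted p = 0.0178), with the replicate block (0.0456), with upper-quartile factors (0.0361) and with library totals (0.00885), and lower in sh-APP than in anti-Abeta without anti-Abeta replicate 3 (-0.39, adjusted p = 0.0148). Chaf1b had 6.48 and 7.02 CPM, 4.81, 6.04 and 5.20, and 6.11, 8.12 and 7.01, with -0.33 ± 0.18 in sh-APP (adjusted p = 0.14).

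All 4 genes of deoxynucleotide synthesis fell in sh-APP. Tyms, thymidylate synthase, was at 42.7 and 42.6 CPM in control, at 12.7, 16.5 and 14.4 in sh-APP and at 22.1, 29.2 and 24.5 in anti-Abeta, with no overlap between groups. Its mean was 34.1% of control in sh-APP, the lowest of the 35 genes, and 59.3% in anti-Abeta, again the lowest. The log2 fold changes were -1.55 ± 0.14 (adjusted p = 5.59e-06), -0.75 ± 0.14 (adjusted p = 0.00345) and, between the arms, -0.80 ± 0.13 (adjusted p = 0.00136); without control replicate 1 the call in anti-Abeta was lost at an adjusted p of 0.0522. Rrm1, the large subunit of ribonucleotide reductase, was at 154 and 156 CPM, at 82.9, 84.6 and 83.4, and at 117, 129.9 and 122. Its groups were separate and narrow, and it fell by 0.89 ± 0.07 in sh-APP (adjusted p = 4.08e-06) and by 0.33 ± 0.07 in anti-Abeta (adjusted p = 0.00628), the latter call being lost on leaving out control replicate 1 (0.0615) and with library totals (-0.18, adjusted p = 0.0701). Rrm2, the small subunit, whose level is known to rise in S phase, was at 20.7 and 23.9 CPM, at 8.78, 9.95 and 8.54, and at 17.0, 25.0 and 17.3. The sh-APP libraries lay below all others, and anti-Abeta replicate 2 lay above both control libraries while the other two lay below. Rrm2 fell by 1.29 ± 0.17 in sh-APP (adjusted p = 5.2e-05) and had -0.17 ± 0.17 in anti-Abeta (adjusted p = 0.467), or -0.39 (adjusted p = 0.0462) without anti-Abeta replicate 2. It overlaps Cys1. Tk1, the thymidine kinase of dividing cells, was at 56.1 and 65.5 CPM, at 36.1, 44.9 and 35, and at 61.2, 77.5 and 60.2, so that again only sh-APP stood apart. It fell by 0.65 ± 0.13 in sh-APP (adjusted p = 0.00131) and had 0.12 ± 0.14 in anti-Abeta (adjusted p = 0.525). Between the arms Rrm1, Rrm2 and Tk1 differed by -0.56 ± 0.06, -1.12 ± 0.15 and -0.78 ± 0.12 (adjusted p = 0.000465, 0.000902 and 0.00134).

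Brca1, which protects stalled forks and repairs breaks, was at 9.09 and 13.9 CPM in control, at 4.06, 4.61 and 3.46 in sh-APP and at 8.88, 9.81 and 7.95 in anti-Abeta. Every sh-APP library was below every other. Brca1 fell by 1.51 ± 0.20 in sh-APP (adjusted p = 6.5e-05), had -0.38 ± 0.20 in anti-Abeta (adjusted p = 0.179) and differed between the arms by -1.13 ± 0.19 (adjusted p = 0.00166). Mybl2, a transcription factor of S phase and a target of E2F, was at 10.6 and 10.04 CPM, at 6.34, 9.11 and 8.58, and at 11.05, 12.4 and 11.4. It had -0.37 ± 0.17 in sh-APP (adjusted p = 0.0831), and was called there without sh-APP replicate 2 (-0.47, adjusted p = 0.0487). Between the arms Mybl2 differed by -0.54 ± 0.15 (adjusted p = 0.0205), a call lost on leaving out sh-APP replicate 1 (0.0791) or anti-Abeta replicate 2 (0.0712).

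The order of the group means sorted the genes into 4 kinds. For 16 of the 35 (45.7%) the order from high to low was control, anti-Abeta, sh-APP, as for 35.1% of tested genes, and for 8 of these all libraries were separated in that order (14.6% of tested genes). For 12 (34.3%) it was anti-Abeta, control, sh-APP, against 7.02% of tested genes: Mcm3, Mcm5, Mcm6, Mcm10, Pola2, Pole, Rfc5, Fen1, Rpa2, Chaf1b, Tk1 and Mybl2. In 5 (14.3%: Cdt1, Mcm2, Mcm7, Pold1 and Chaf1a) anti-Abeta was highest and control lowest, against 8.99% of tested genes. In Gins2 and Rfc2 (5.71%) sh-APP was highest and control lowest, against 36.3% of tested genes. Many of these orders rest on differences between neighbours within their spread: none of the 12 was called in anti-Abeta against control. Within the arms, 1 library was often the highest. Among the sh-APP libraries replicate 2 was highest for 29 of the 35 genes, against 35.2% of tested genes, and among the anti-Abeta libraries replicate 2 was highest for 20, against 35.5%.

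Among 45 other tested genes of replication, 32 fell and 4 rose in sh-APP, 11 fell and 2 rose in anti-Abeta, and 26 were lower and 0 higher in sh-APP than in anti-Abeta (31 and 1 with p unadjusted and under 0.05, 27 and 0 by DESeq2 and by limma-voom). Of all tested genes 27.9% fell and 25.8% rose in sh-APP, 16.6% and 12.7% in anti-Abeta, and 16% and 10.1% were lower and higher between the arms. Of the 45, 6 fell and 5 rose in anti-Abeta with library totals alone. Their median log2 fold changes were -0.68, -0.23 and -0.45. Orc2, an origin recognition subunit, was at 79.6 ± 2.03 CPM in control (SD, n = 2), 35.7 ± 1.70 in sh-APP and 51.9 ± 7.05 in anti-Abeta (n = 3 each), with changes of -1.16 ± 0.11 and -0.62 ± 0.11. Orc4, of the same complex, changed by -1.46 ± 0.12 and -0.53 ± 0.12, and it overlaps other genes. Without control replicate 1 the anti-Abeta calls of Orc2 and Orc4 were lost (adjusted p = 0.0509 and 0.09). Gmnn, geminin, which blocks relicensing, fell by 1.26 ± 0.22 in sh-APP and had -0.27 ± 0.22 in anti-Abeta (adjusted p = 0.388). The 4 that rose in sh-APP were Pold2 (0.46 ± 0.10) and Pold4 (0.42 ± 0.13), which are partners of Pold1, Rnaseh2a (0.43 ± 0.08), a subunit of the nuclease that removes RNA from DNA, and Chtf8, picked after its values were seen. Pold4 overlaps Rad9a, and on leaving out control replicate 2 its adjusted p was 0.0808 and 2 genes of the list rose. Pold2 (0.33 ± 0.10) and Rnaseh2a (0.29 ± 0.08) also rose in anti-Abeta, calls lost on leaving out control replicate 1 (adjusted p = 0.113 and 0.212), and for Pold2 also without control replicate 2 (0.133), without anti-Abeta replicate 3 (0.0815), with the replicate block (0.061) and in a fit of the 2 groups alone (0.0501).

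**Figure D4:**
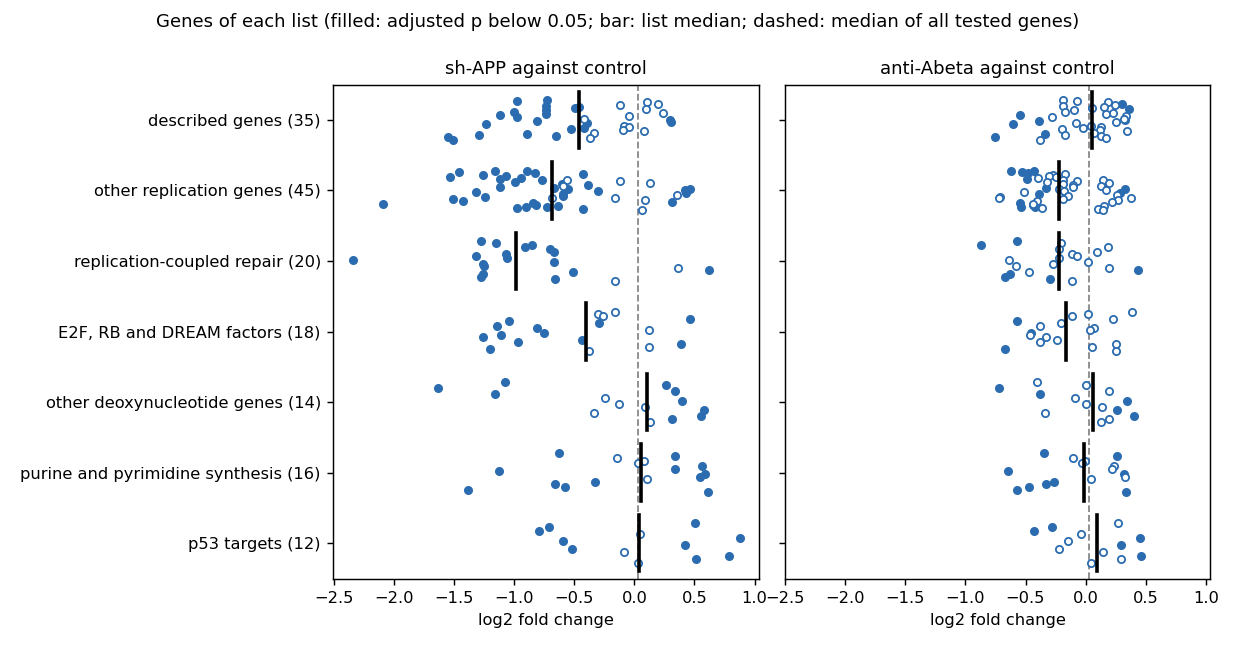
Log2 fold change of each tested gene of 7 lists in sh-APP against control (left) and anti-Abeta against control (right), 1 point per gene, filled where the adjusted p was below 0.05, with a bar at each list's median and a dashed line at the median of all tested genes. In sh-APP the medians of the described genes, the other replication genes and the repair genes lay at -0.46, -0.68 and -0.98, and those of the 3 lower lists near zero.

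The rest of the nucleotide pathways moved both ways. Of 14 other genes of deoxynucleotide supply, 3 fell and 6 rose in sh-APP (median 0.11), and 2 fell and 3 rose in anti-Abeta (median 0.06), beside 27.9% and 25.8% of all tested genes in sh-APP and 16.6% and 12.7% in anti-Abeta. Dck, the kinase that salvages deoxycytidine, was at 42.4 ± 1.79 CPM in control, 13.6 ± 1.05 in sh-APP and 25.8 ± 3.91 in anti-Abeta, with changes of -1.64 ± 0.13 and -0.72 ± 0.13. Rrm2b, the small reductase subunit that p53 induces, changed by -1.07 ± 0.19 and -0.41 ± 0.18 (adjusted p = 0.116 for the latter). Shmt2, a mitochondrial enzyme of folate metabolism, rose by 0.58 ± 0.09, Nt5m, a mitochondrial nucleotidase, by 0.55, and Dtymk, the next kinase after Tyms and Tk1, by 0.39 ± 0.08 in sh-APP. In anti-Abeta, Dtymk rose by 0.35 ± 0.08. The calls of Dck and Dtymk in anti-Abeta were lost on leaving out control replicate 1 (adjusted p = 0.0552 and 0.104). Of 16 genes that make purines and pyrimidines, 6 fell and 6 rose in sh-APP and 6 fell and 3 rose in anti-Abeta, with medians of 0.06 and -0.02. The anti-Abeta counts of this list turned to 3 that fell and 6 that rose with library totals alone, and those of the deoxynucleotide list were 1 and 6. Prps2, which makes the ribose precursor, was at 319 ± 0.982 CPM in control, 122 ± 9.73 in sh-APP and 215 ± 27.7 in anti-Abeta, and Cad, which starts pyrimidine synthesis, rose by 0.59 ± 0.10 in sh-APP.

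Among 18 genes of E2F, RB and DREAM, the regulators of this set, 10 fell and 2 rose in sh-APP (median -0.40), and 3 fell and 0 rose in anti-Abeta by edgeR's test (median -0.16). Of all tested genes 27.9% fell and 25.8% rose in sh-APP, and 16.6% and 12.7% in anti-Abeta, so the 3 falls in anti-Abeta are near the background. In anti-Abeta the counts were 6 and 2 with p unadjusted and under 0.05, 3 and 3 with library totals, 4 and 0 by limma-voom and 6 and 0 by DESeq2, 5 fell with RLE size factors, and on leaving out control replicate 2 or anti-Abeta replicate 2 there were 1 and 6 that fell. On leaving out control replicate 1, 6 fell and 1 rose in sh-APP, where 1 rose also without sh-APP replicate 1 or 2. E2f1, an activator, had -0.16 ± 0.16 in sh-APP (adjusted p = 0.431) and 0.38 ± 0.16 in anti-Abeta (adjusted p = 0.0898), and differed by -0.54 ± 0.14 between the arms (adjusted p = 0.0152), a call lost on leaving out sh-APP replicate 1 (0.061). E2f4, known mainly as a repressor, rose by 0.46 ± 0.10 in sh-APP, and Rb1, the retinoblastoma protein, fell by 1.11 ± 0.16, though it overlaps Lpar6. Of 20 genes of repair at replication forks, 17 fell and 1 rose (Rad9a, 0.62 ± 0.12) in sh-APP, 5 fell and 1 rose in anti-Abeta, and 15 were lower and 0 higher in sh-APP than in anti-Abeta, which was also the count with p unadjusted, 15 and 0 with DESeq2 and 14 and 0 with limma-voom. Of all tested genes 16% were lower and 10.1% higher between the arms. On leaving out sh-APP replicate 1 or anti-Abeta replicate 2, the count of repair genes lower between the arms was 9 and 8. The medians were -0.98, -0.22 and -0.68. Rad17, which loads the checkpoint clamp that Rad9a belongs to, changed by -1.27 ± 0.10 and -0.67 ± 0.10 in the 2 arms, and it overlaps other genes. Of 12 targets of p53, 4 fell and 5 rose in sh-APP (median 0.04), and 2 fell and 3 rose in anti-Abeta (median 0.10), or 1 and 5 with library totals alone, beside the shares of all tested genes given above for the nucleotide lists. Cdkn1a, the inhibitor p21 that halts the cycle, rose by 0.50 ± 0.14 in sh-APP (adjusted p = 0.00878), a call lost on leaving out control replicate 1 (0.0635), and Mdm2, another p53 target, fell by 0.71 ± 0.09. The counts of all these lists in anti-Abeta rested on control replicate 1: on leaving it out, which leaves 1 control library, few or none of the genes of each list were called. Most calls among all tested genes were lost in that fit too. On leaving out control replicate 2 or anti-Abeta replicate 1 or 3, 2 of the repair genes were lower and 0 higher, 1 of the deoxynucleotide genes was lower, and some counts of 2 or 3 in the other lists went to 1. Of the repair genes, 2 fell in anti-Abeta and 2 rose in sh-APP with library totals alone. With the replicate block, and in a fit of the 2 groups alone, 1 of the deoxynucleotide genes and 1 of the p53 targets were lower in anti-Abeta and 1 of the other replication genes was higher. With upper-quartile factors, too, 1 deoxynucleotide gene and 1 p53 target were lower.

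Gene span, the length of the gene on GRCr8 with introns, was set beside the fold change. Across the 35 genes Spearman's rho of span with log2 fold change was -0.40 in sh-APP against control and -0.18 in anti-Abeta against control, and across the 12414 tested genes with a span (85.9%) it was -0.22 and -0.19. In sh-APP against anti-Abeta, which shares these libraries, it was -0.47 across the 35 genes and -0.19 across tested genes. The median span was 22859 bases for the 20 genes that fell in sh-APP, 14527 for the other 15 and 26029 for tested genes. Genes within a library are not independent replicates, so these correlations carry no test.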

How the data were processed

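The values deposited are raw counts, 1 row per gene symbol, checked to be whole numbers. Per the submitters' processing notes, the authors' tools were STAR 2.6.0a and HTSeq 0.11.1 on the build rn6, besides Trimmomatic 0.36, FastQC 0.11.7, DESeq2 1.24.0 and SAMtools 1.9. The sources used here give neither their settings nor the strandedness, so reads of overlapping genes cannot be told apart by strand. Groups came from the labels. All 8 libraries entered 1 fit in edgeR 4.0.16 (R 4.3.3; filterByExpr with a minimum count of 10 and a minimum total of 15, TMM factors, robust quasi-likelihood, 5 residual degrees of freedom), with Benjamini-Hochberg adjustment over 14445 genes. The standard error (SE) is the log2 fold change over the root of its F statistic. The fit was tested on simulated counts in which a small share of genes changed, in sh-APP alone. A shift as broad as that of these data was not simulated. Libraries are not stated to come from separate cultures, so p-values reflect only how these libraries vary, which may be technical. The 35 genes, the other lists, the markers and the motifs were chosen with earlier results of these data known. Named besides the 35 are the 3 called genes of smallest p per list and direction in each arm and a fixed set (Gmnn, Rrm2b, Tk2, Dck, Cdkn1a, E2f1, E2f4, E2f8, Rb1, Mki67, Gfap and App), of which part is printed; 1 further gene of that set is not reported here. Alternatives were DESeq2 1.42.0, limma-voom (limma 3.58.1), other size factors and filters, a non-robust spread, the 2 groups compared alone, a replicate block, each library left out and, added after the data were seen, a fit without mitochondrially encoded genes. Promoters and gene spans are RefSeq's, on GRCr8, whereas counts were made on rn6. No genome, protein sequence or miRNA was used here.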

Additional observations from a re-analysis of the deposited data

How the results depend on the processing

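Of 1995 values of the 35 genes under an alternative, 1888 kept their direction and side of the threshold or were uncalled under both settings, 85 lost a call, 22 gained one and 0 of the called ones reversed. With library totals alone 5 of the 35 genes were higher in sh-APP against control (2 with TMM), beside 5174 of all genes (3723 with TMM). In anti-Abeta against control 3 were then lower (5 with TMM) and 7 higher (3 with TMM), and of all genes 1417 were lower and 3590 higher (2391 and 1832 with TMM). Upper-quartile factors gave 6 higher members in that comparison, beside 2391 higher among all tested genes. The other factors, tools and filters, the non-robust spread, the fit without mitochondrially encoded genes and the 2 groups alone left the counts of members within 1.5 times. Leaving out each library in turn gave 0 to 3 higher members in sh-APP against control. In anti-Abeta against control it gave 0 to 11 called members, 0 to 8 lower and 0 to 3 higher, and among all genes 439 to 4775 called, 385 to 2799 lower and 54 to 1976 higher. In sh-APP against anti-Abeta it gave 14 to 23 lower members, and among all genes 2233 to 3582 called, 1489 to 2219 lower and 744 to 1477 higher. With 1 control library left, its spread is assumed to be that of the other groups. The replicate block gave 20 lower and 2 higher members in sh-APP against control, 5 and 4 in anti-Abeta against control, and 23 and 0 between the arms. Over all tested genes, same-numbered libraries had correlations of their deviations from -0.01 to 0.11, and not every library correlated best with its own number. The deviations of the 2 control libraries mirror each other, so pairs with control cannot show a match. Between the arms, replicates 1 and 2 had 0.11 and 0.10 with their own number and -0.10 and -0.11 across. Replicate 3 had -0.01 with its own number. The main fit takes no pairs, and the replicate block is given beside it. Whether the members share an effect of the replicate number was not tested: replicate 2 was highest for 29 of the 35 in sh-APP and for 20 in anti-Abeta. In control, replicate 1 was above replicate 2 for 13 of the 35. Depth sets a counting error, which the spread between libraries exceeded on average over tested genes. The chi-square per degree of freedom between libraries of a group was 17.1 to 45.8, an average in which genes with high counts weigh most. For members with low counts the counting error was not assessed.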
